A study of Mus musculus with 4 samples.

Results

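Respiratory complex I, the NADH:ubiquinone oxidoreductase of the inner mitochondrial membrane, was followed through the lung transcripts of its subunits and assembly factors. Its members were taken as the rows whose gene name starts with Nduf and whose mean over the 4 libraries was at least 1 FPKM (fragments per kilobase of transcript, scaled to the size of the library). All 45 rows with that prefix passed, out of 17691 named genes in the table. Lung tissue came from wild type C57BL/6 mice aged 6 to 8 weeks and kept in a specific-pathogen-free facility. The groups were bleomycin (2 libraries), an antitumour glycopeptide that cleaves DNA and is the standard way to model pulmonary fibrosis in mice, and PBS (2 libraries), the buffer alone, each given by the intranasal route for 10 days. The treatment notes speak of 4 groups and the design text of triplicates, while these 2 groups of 2 libraries are the ones analysed here. The labels do not say whether each library came from its own animal, so the p-values below measure only the spread between these libraries, which may be technical.

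Complex I feeds electrons from NADH into the respiratory chain and pumps protons as it does so, and it is the chain's largest enzyme. A matrix arm oxidizes NADH at a flavin (the NADH dehydrogenase or N module) and passes the electrons along iron-sulfur clusters to ubiquinone (the Q module), while a membrane arm moves the protons. The core subunits, conserved from bacteria, are encoded partly by mitochondrial DNA and partly by nuclear genes, and mitochondrially encoded genes numbered 0 in the table. The accessory subunits surround that core, and the assembly factors, named Ndufaf, help build the enzyme without staying in it. In lung, mitochondria are prominent in alveolar type II and ciliated cells.

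The 45 genes comprised 7 nuclear core subunits (among them Ndufv1, Ndufv2, Ndufs1, Ndufs3, Ndufs7 and Ndufs8), 27 accessory genes with A, B or C names, 4 accessory subunits with S or V names (Ndufs4, Ndufs5, Ndufs6 and Ndufv3) and 7 assembly factors. Of the other protein-coding Nduf symbols in RefSeq, Ndufb1, Ndufb4b and Ndufb4c were not analysed here. Ndufaf8 stands in the table under its older name 1810043H04Rik, outside the rule, and is described with the assembly factors.

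The promoters of 39 of the 45 genes are in the RefSeq table used here (GRCm38.p6), each as 250 bases before and 50 bases after a transcription start. They are shown because NRF1, a transcription factor known for regulating nuclear genes of mitochondrial proteins, binds a GC-rich palindrome (the letters in capitals below), and the Ndufa11 promoter, that of the only complex I gene that passed the test below, was among the 3 that held it. That is 7.69% of the 39 genes, against 1.07% of all 27025 genes with a promoter in the table, when both strands are searched. The other genes holding it were Ndufaf4 and Ndufaf5, whose transcripts did not pass. In the lines below the capitals mark the palindrome, and all 3 genes lie on the plus strand, at chr17:56717512-56717811, chr4:24897833-24898132 and chr2:140170396-140170695.
Ndufa11: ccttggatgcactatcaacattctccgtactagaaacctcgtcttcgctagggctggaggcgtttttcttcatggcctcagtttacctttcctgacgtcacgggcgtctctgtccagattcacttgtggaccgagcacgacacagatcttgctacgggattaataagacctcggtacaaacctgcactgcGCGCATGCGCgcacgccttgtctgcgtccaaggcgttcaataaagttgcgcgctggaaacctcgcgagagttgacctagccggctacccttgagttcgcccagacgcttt
Ndufaf4: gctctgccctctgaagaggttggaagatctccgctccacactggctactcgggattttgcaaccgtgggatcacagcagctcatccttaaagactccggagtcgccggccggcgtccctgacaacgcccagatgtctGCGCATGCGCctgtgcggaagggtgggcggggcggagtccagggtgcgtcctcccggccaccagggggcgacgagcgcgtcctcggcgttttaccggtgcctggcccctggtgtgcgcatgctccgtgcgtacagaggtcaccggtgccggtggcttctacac
Ndufaf5: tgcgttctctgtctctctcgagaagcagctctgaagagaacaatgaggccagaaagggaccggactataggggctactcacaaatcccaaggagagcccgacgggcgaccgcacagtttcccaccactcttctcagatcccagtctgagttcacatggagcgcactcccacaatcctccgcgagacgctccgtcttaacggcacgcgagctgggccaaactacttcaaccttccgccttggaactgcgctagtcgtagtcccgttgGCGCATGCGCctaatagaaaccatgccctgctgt
The palindrome began 60 bases before the start in Ndufa11 and 113 bases before it in Ndufaf4, and at base 17 after it in Ndufaf5. None of these 3 promoters held the other motifs searched. The word AAGATGGCG of the factor YY1 was found in 5 of the 39 genes (12.8%, against 1.64% of all genes), namely Ndufa9, Ndufc1, Ndufs4, Ndufs6 and Ndufs7. The word CCGGAAG of the ETS family, to which the GABP subunit Gabpa belongs, was found in 5 (12.8%, against 9.93%), namely Ndufaf1, Ndufb6, Ndufb7, Ndufs3 and Ndufs8. The word TCAAGGTCA of the estrogen-related receptors was found in 0 of the 39 genes and in 0.466% of all genes. A match is a run of letters only, and binding was not measured here. The shares of all genes were not limited to genes that reached 1 FPKM in these libraries, as the members did. The gaps between these shares and those of the members were not tested.

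The whole table gives the setting for these genes. Depth, estimated from the step that a single fragment makes in low values, was 17200000 and 17800000 fragments for bleomycin and 17000000 and 17100000 fragments for PBS. The lowest library estimate per member was 43 fragments at the least, for Ndufaf6, and it was under 100 for 3 members (Ndufaf5, Ndufaf6 and Ndufa11). Y-linked transcripts separated the groups, with Eif2s3y at 0 and 0 FPKM with bleomycin and at 26.4 and 28.9 FPKM with PBS, so treatment and the sex of the mice cannot be told apart. Scgb1a1, the secretory protein of club cells, took 3.98% and 4.28% of summed FPKM with bleomycin and 11.2% and 8.35% with PBS, without passing limma (adjusted p = 0.131). These are shares of summed FPKM and not of fragments. Its fragments count in the library size to which every other gene's FPKM is scaled. Of the cell type markers, 3 of 5 macrophage and 4 of 4 cycling cell markers rose, and 2 of 4 fibroblast markers rose while 1 fell. Club cell markers fell in 2 of 3 cases, hepatocyte markers in 5 of 5, erythroid markers in 4 of 4, neutrophil markers in 2 of 4 and capillary endothelium markers in 1 of 4. Among 5 alveolar type I markers 1 rose and 1 fell, and 0 of 5 alveolar type II, 0 of 4 ciliated cell, 0 of 4 T cell and 0 of 3 B cell markers passed. The hepatocyte markers summed to 5.61 and 5.01 FPKM with bleomycin and to 64.0 and 60.55 FPKM with PBS. Of markers of muscle and brown fat, 0 of 5 tested cardiomyocyte, 0 of 1 skeletal muscle and 0 of 1 brown adipocyte markers passed. Of 10 listed cardiomyocyte markers only these 5 were tested. Among them 2 (Myl7 and Tnni3) lay below PBS without overlap, beside 35.0% of all tested genes, and 3 overlapped. The alveolar type II markers summed to 13065 and 10006 FPKM with bleomycin and to 12302 and 14991 FPKM with PBS, which overlap. Most of each sum was Sftpc, and the 5 markers differed. Sftpb and Abca3 lay above PBS and Sftpa1 below it, without overlap, while Sftpc and Lamp3 overlapped. The ciliated markers summed to 79.7 and 40.8 FPKM with bleomycin and to 116 and 98.6 FPKM with PBS. In bulk tissue a loss of cells of a type and a lower amount of RNA per cell cannot be told apart, and the part of these shifts in the complex I values was not tested.

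The summed level of complex I transcripts overlapped between the groups in FPKM. It lay higher with bleomycin only as a share of summed FPKM, a total in which Scgb1a1 differed between the groups. Summed over the 45 genes they amounted to 2789 and 2753 FPKM with bleomycin and to 2530 and 2838 FPKM with PBS, so the groups overlapped. As a share of each library's summed FPKM they made up 0.588% and 0.597% with bleomycin and 0.519% and 0.575% with PBS, without overlap. The summed FPKM itself differed, at 474077 and 461277 with bleomycin and 487653 and 493101 with PBS. Scgb1a1 alone took 3.98% and 4.28% of that sum with bleomycin and 11.2% and 8.35% with PBS, so the shares of other genes move with it. The part of Scgb1a1 in the gap between the complex I shares was not tested. With limma's adjusted p held under 0.05, 1 of the 45 genes rose, 0 fell and 44 missed the threshold, beside 16.3% called among all 12986 tested genes (8.59% higher and 7.69% lower). Without adjustment, 6 of 45 had a p under 0.05, beside 35.3% of all tested genes. The groups were without overlap for 12 members that lay higher and 7 that lay lower with bleomycin, beside 31.5% and 35.0% of all tested genes, and they overlapped for 26.

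The changes themselves were small. The median change of the members in log2(FPKM + 1) was 0.05, with quartiles of -0.09 and 0.12 and the extremes at -0.40 for Ndufa4l2 and 0.47 for Ndufa11. Over all tested genes the median was -0.02 and the quartiles were -0.24 and 0.21. A p that misses the threshold does not show that a level is the same, so the intervals matter here. The 95% interval of the change, taken gene by gene from limma, lay within a 1.5-fold rise or fall for 41 of the 45 members, beside 53.7% of all tested genes. The others were Ndufa11 and Ndufv3, whose intervals reached 0.73 and 0.74 on the log2 scale, and Ndufa4l2 and Ndufaf6, whose intervals reached -0.68 and -0.62. Related lists had such intervals too, in 67 of 77 mitochondrial ribosomal protein genes and 15 of 15 complex I factors with other names. In complexes II, III, IV and ATP synthase it was 6 of 8, 8 of 9, 9 of 11 and 14 of 17. The median level was 58.2 FPKM for the members and 10.99 FPKM for all tested genes. Several members overlap another gene by annotation, among them Ndufv2 (Ankrd12), Ndufa1 (Rnf113a1), Ndufa13 (Tssk6) and Ndufb11 (Rbm10), and without a stated strand their fragments may be shared.

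**Figure D1:**
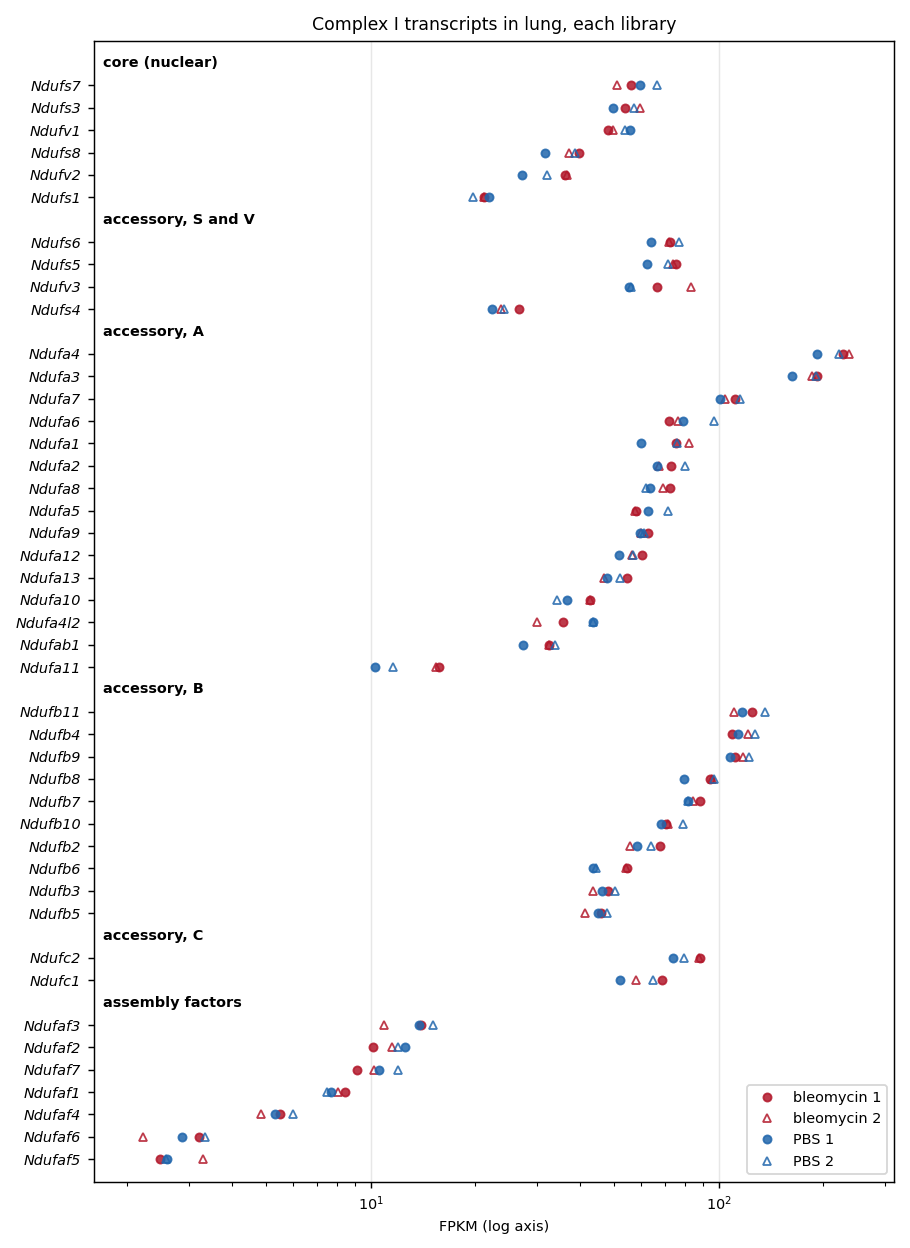
FPKM on a log axis for 44 complex I genes, by class and in order of mean level, with filled circles for replicate 1 and open triangles for replicate 2 (bleomycin in red, PBS in blue). Within a gene the 4 libraries lie close together, while the genes spread from 2.74 FPKM (Ndufaf5) to 219.9 FPKM (Ndufa4) in mean, with the assembly factors between 2.74 and 13.4 FPKM.

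The core subunits, which carry the flavin, the iron-sulfur clusters and the quinone site, showed 0 rises and 0 falls among 7. In the N module, Ndufv1, the flavin-bearing subunit that oxidizes NADH, was at 48.2 and 49.7 FPKM with bleomycin and at 55.8 and 53.7 FPKM with PBS. Its partner Ndufv2, an iron-sulfur subunit, was at 36.1 and 36.7 FPKM with bleomycin and at 27.3 and 32.2 FPKM with PBS. The values of these neighbours in the enzyme thus lay on opposite sides of PBS, both without overlap, at log2 changes of -0.16 ± 0.08 and 0.29 ± 0.11 (SE), and neither passed (adjusted p = 0.217 and 0.13 by limma). Ndufs1, the largest iron-sulfur subunit of that module, was at 21.1 and 21.2 FPKM with bleomycin and at 21.8 and 19.7 FPKM with PBS, the lowest of the core genes and with overlapping groups.

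In the Q module, Ndufs7, whose cluster hands electrons to ubiquinone, was the lowest core gene relative to PBS, at 55.9 and 51.1 FPKM with bleomycin and 59.3 and 66.4 FPKM with PBS (log2 change -0.23 ± 0.10, adjusted p = 0.179 by limma). Its groups did not overlap, whereas those of Ndufs3 and Ndufs8, also of that module, did. Ndufs3 averaged 56.6 ± 3.89 FPKM with bleomycin and 53.5 ± 5.25 FPKM with PBS, and Ndufs8 averaged 38.4 ± 1.83 FPKM with bleomycin and 35.2 ± 4.999 FPKM with PBS (SD, n = 2 each).

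Among the 27 accessory genes with A, B and C names 1 rose, 0 fell and 26 did not pass. The riser was Ndufa11 (RefSeq gene 69875, GRCm38.p6 chromosome 17, 56717762 to 56724248), a membrane-arm subunit at the contact with complex III in the supercomplex. Ndufa11 was at 15.7 and 15.4 FPKM with bleomycin and at 10.3 and 11.6 FPKM with PBS. Both bleomycin libraries lay above both PBS libraries, and the bleomycin pair lay closer together than the PBS pair. The log2 change was 0.47 ± 0.10 (SE), or 1.42-fold in mean FPKM (adjusted p = 0.0387 by limma). It had the lowest level of all subunits, and RefSeq names a transcribed pseudogene, Ndufa11b, so fragments could be shared between the copies and the value is uncertain. The call was absent without a filter on low values (adjusted p = 0.0621) and with the replicate number as a block (adjusted p = 0.0666). It was also absent without PBS replicate 1 (adjusted p = 0.315) and without PBS replicate 2 (adjusted p = 0.23), fits in which limma called 0 of all tested genes.

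The member farthest below PBS was Ndufa4l2, a paralog of Ndufa4 and a known target of hypoxia-inducible factor that restrains respiration. Ndufa4l2 was at 35.6 and 30.0 FPKM with bleomycin and at 43.5 and 43.7 FPKM with PBS, without overlap. Its log2 change of -0.40 ± 0.11 did not pass (adjusted p = 0.0682 by limma), but it did with quantile normalization (adjusted p = 0.0469), without bleomycin replicate 1 (adjusted p = 0.00134) and without bleomycin replicate 2 (adjusted p = 0.0285). Those last fits called 42.5% and 33.7% of all tested genes, and without PBS replicate 1 or 2 the adjusted p of Ndufa4l2 was 0.367 and 0.361. Ndufa4l2 is abundant in pericytes, and the pericyte markers in the same libraries summed to 54.2 and 52.5 FPKM with bleomycin and to 41.2 and 38.4 FPKM with PBS, with 1 of 4 risen. That 1 was Pdgfrb, which made up most of the sum, at 38.8 and 42.5 FPKM with bleomycin and 30.0 and 27.8 FPKM with PBS. Cspg4, Kcnj8 and Abcc9 had log2 changes of 0.38, 0.27 and -0.33 and did not pass, so the markers did not move together. Its gene overlaps Shmt2 by annotation, and strand was not given in the sources used here. Ndufa4 itself, once counted as a complex I subunit and now as one of cytochrome c oxidase, had the highest level of the 45 genes, at 228 and 237 FPKM with bleomycin and at 191 and 222 FPKM with PBS.

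The remaining A-named subunits spread on both sides of PBS. Ndufa10, of the proximal membrane arm, was at 42.6 and 42.6 FPKM with bleomycin and at 36.7 and 34.4 FPKM with PBS, without overlap and without passing (log2 change 0.26 ± 0.08, adjusted p = 0.0941 by limma). Ndufa6 and Ndufa5, of the matrix arm, had log2 changes of -0.24 ± 0.12 and -0.21 ± 0.10 and did not pass (adjusted p = 0.24 and 0.19 by limma). Ndufa6 was at 71.8 and 76.4 FPKM with bleomycin and at 79.0 and 97.2 FPKM with PBS, where the gap within the PBS pair exceeded that between the group means. Ndufab1, the mitochondrial acyl carrier protein that also serves fatty acid and lipoate synthesis, was at 32.5 and 32.6 FPKM with bleomycin and at 27.5 and 33.9 FPKM with PBS. Ndufa13, also known as GRIM-19, averaged 50.8 ± 5.49 FPKM with bleomycin and 49.96 ± 3.21 FPKM with PBS. Ndufa1, an X-linked subunit needed for assembly of the membrane arm, was at 75.4 and 82.2 FPKM with bleomycin and at 59.8 and 75.7 FPKM with PBS, with overlap.

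The B-named subunits, which sit in the distal membrane arm, lay close to PBS with 1 exception. Their log2 changes lay between -0.10 and 0.11 for all of the 10 except Ndufb6. Ndufb6 was at 54.6 and 54.3 FPKM with bleomycin and at 43.4 and 44.5 FPKM with PBS and its groups did not overlap. Its log2 change of 0.30 ± 0.07 did not pass (adjusted p = 0.0578 by limma) but passed after rescaling to TPM, that is to an equal sum in every library (adjusted p = 0.034). Ndufb11, X-linked, had the highest level among them, at 125 and 110 FPKM with bleomycin and at 117 and 136 FPKM with PBS, with overlap. Ndufc2 and Ndufc1, of the proximal membrane arm, were at log2 changes of 0.20 ± 0.08 and 0.12 ± 0.15.

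Of the 4 accessory subunits with S and V names 0 passed, and all 4 had a positive log2 change, except that Ndufs6 was at -0.08 without PBS replicate 1. Ndufv3, a small subunit of the N module made in a short and a long isoform, had the widest gap between bleomycin libraries among them, at 66.5 and 83.1 FPKM with bleomycin and 55.4 and 56.1 FPKM with PBS. The groups did not overlap, and the log2 change of 0.41 ± 0.13 did not pass (adjusted p = 0.0948 by limma). Without bleomycin replicate 1 it was 0.57 and without bleomycin replicate 2 it was 0.25, and limma called both, in fits that called 42.5% and 33.7% of all tested genes. Without PBS replicate 1 or 2 it was not called (adjusted p = 0.416 and 0.391). Ndufs4, whose loss causes a Leigh-like encephalopathy in mice, was at 26.8 and 23.7 FPKM with bleomycin and at 22.4 and 24.1 FPKM with PBS, with overlap. Ndufs5 and Ndufs6 were at log2 changes of 0.16 ± 0.10 and 0.05 ± 0.11.

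**Figure D2:**
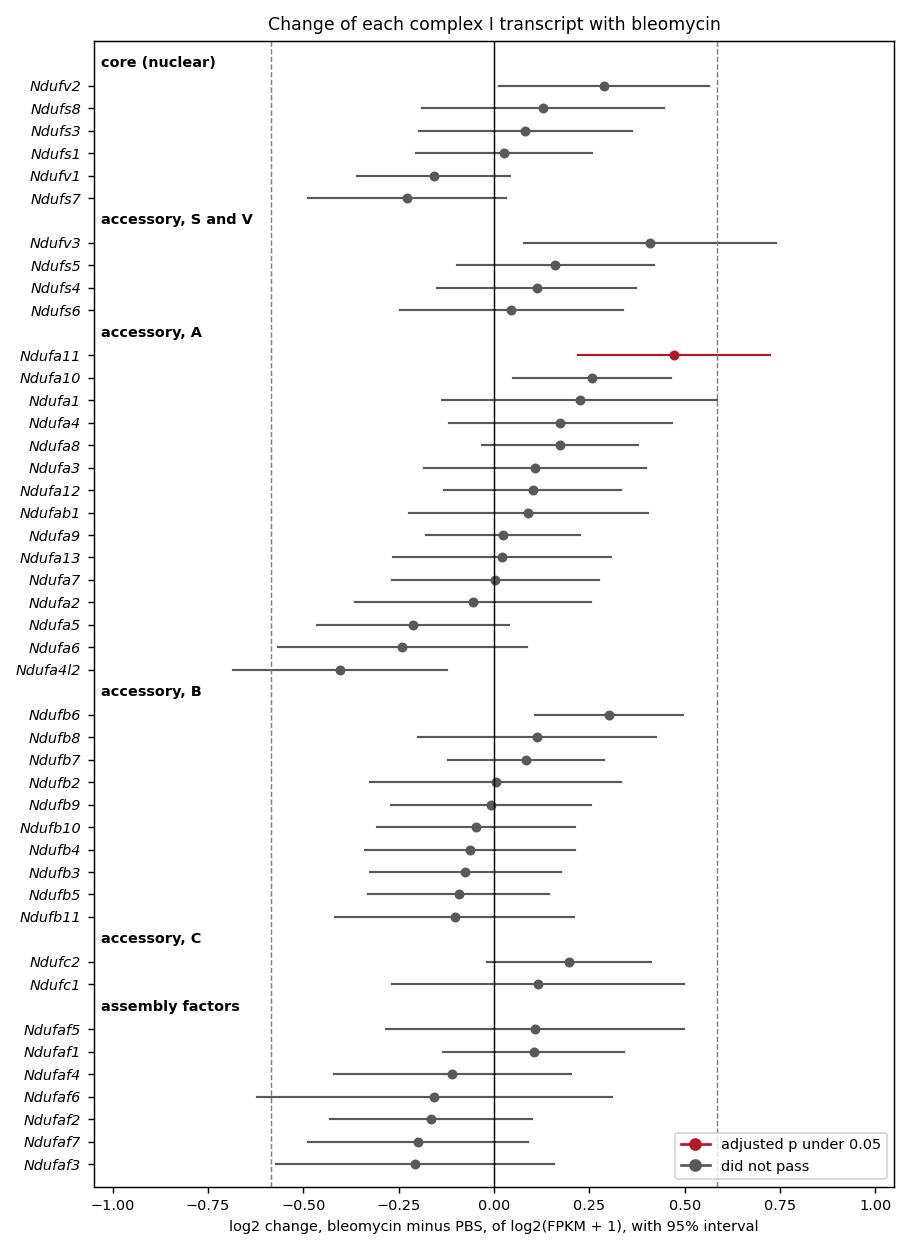
Log2 change of log2(FPKM + 1), bleomycin minus PBS, for 44 complex I genes by class, with the 95% interval from limma as a line. Dashed lines mark a 1.5-fold change, and Ndufa11, in red, is the 1 gene that passed, while the intervals of Ndufa11, Ndufv3, Ndufa4l2 and Ndufaf6 cross a dashed line and the others lie between them.

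Grouped by place in the enzyme, as known for the mammalian complex, the N module (10 genes) had a median log2 change of 0.04, the Q module (6 genes) of 0.05, the distal membrane arm (10 genes) of -0.03 and the proximal membrane arm (9 genes) of 0.17. All 9 genes of the proximal arm had a positive change, from 0.02 for Ndufa13 to 0.47 for Ndufa11, and 1 of the 9 passed. With quantile normalization Ndufa13 was at -0.01, without bleomycin replicate 1 Ndufa13 and Ndufc1 were below 0 (-0.09 and -0.01), and without PBS replicate 1 Ndufa13, Ndufa3 and Ndufc1 were. Summed, the proximal arm stood at 685 and 662 FPKM with bleomycin and at 568 and 641 FPKM with PBS, without overlap but with a wider gap within the PBS pair than between the nearest libraries of the groups. The distal arm stood at 815 and 796 FPKM with bleomycin and at 761 and 851 FPKM with PBS, with overlap. The grouping was made with these values known, and the difference between arms was not tested.

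Assembly factors stood far below most subunits in FPKM, and none passed. Their median level in a library, that of Ndufaf1 in each, was 8.42 and 8.07 FPKM with bleomycin and 7.69 and 7.51 FPKM with PBS, against 48.2 and 49.7 FPKM with bleomycin and 49.8 and 53.7 FPKM with PBS for the core genes. Of the 7, 0 rose, 0 fell and 7 did not pass, and 5 had a negative change, with a median of -0.16. Ndufaf3, which acts early on the Q module, was at 14.0 and 10.9 FPKM with bleomycin and at 13.8 and 15.1 FPKM with PBS. Ndufaf7, an arginine methyltransferase of early complex I assembly, was at 9.14 and 10.2 FPKM with bleomycin and at 10.6 and 11.97 FPKM with PBS. Ndufaf2, a chaperone that resembles Ndufa12 and leaves the late intermediate, was at 10.1 and 11.5 FPKM with bleomycin and at 12.6 and 11.95 FPKM with PBS. The groups overlapped for Ndufaf3 and did not for Ndufaf7 and Ndufaf2.

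The other assembly factors of the 7 were lower in level, whereas Ndufaf8, outside the rule, had a higher mean than any of the 7. Ndufaf1, a factor of the membrane-arm assembly complex, averaged 8.24 ± 0.25 FPKM with bleomycin and 7.60 ± 0.13 FPKM with PBS, the 1 of the 7 in which the bleomycin libraries lay above. Ndufaf4, a partner of Ndufaf3 and a bearer of the NRF1 palindrome, averaged 5.17 ± 0.46 FPKM with bleomycin and 5.65 ± 0.50 FPKM with PBS. Ndufaf5, which hydroxylates an arginine of Ndufs7 and also bears the palindrome, was at 2.48 and 3.30 FPKM with bleomycin and at 2.60 and 2.58 FPKM with PBS. Ndufaf6 was at 3.22 and 2.21 FPKM with bleomycin and at 2.87 and 3.35 FPKM with PBS. At an estimated 43 fragments in its lowest library a change of this size was not detectable. Ndufaf8, the partner of Ndufaf5 listed as 1810043H04Rik, was at 19.6 and 13.5 FPKM with bleomycin and at 18.7 and 19.5 FPKM with PBS, with overlap (adjusted p = 0.446 by limma).

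Of 15 genes listed as complex I factors with other names 0 rose and 0 fell, and their median log2 change was 0.08. The list also held genes that are not specific to complex I (Taco1, Mtfmt, Aifm1 and Chchd4). Tmem261, a distal-arm factor, had the highest level at 35.2 and 29.9 FPKM with bleomycin and 29.5 and 26.0 FPKM with PBS. Ecsit and Tmem126b, which work with Ndufaf1 in the same assembly complex, were at log2 changes of -0.22 ± 0.10 and -0.19 ± 0.09, and Acad9, another partner, at -0.09 ± 0.08. Timmdc1 and Tmem70, also linked to that complex, were at 0.19 ± 0.12 and 0.08 ± 0.10, and Ndufaf1 at 0.10 ± 0.09. None of these passed, and they were named after their values were seen.

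The other respiratory complexes held few calls as well, with higher medians. Complex II, a list of its subunits and of Sdhaf assembly factors, had 0 of 8 called with a median log2 change of 0.17. Complex III had 0 of 9 with 0.16, and ATP synthase 0 of 17 with 0.16. Sdha was the 1 of the 8 with a negative change, at 69.0 and 66.6 FPKM with bleomycin and 81.2 and 84.2 FPKM with PBS, without overlap. It did not pass (-0.28 ± 0.08, adjusted p = 0.0746 by limma) but did with quantile normalization (adjusted p = 0.0425). In complex IV 1 of 11 rose with a median of 0.15, the riser being Cox5a, at 105 and 105 FPKM with bleomycin and 70.8 and 74.9 FPKM with PBS. The gap between these medians and that of complex I was not tested. Changes were positive for 7 of 8 genes of complex II, 6 of 9 of complex III, 10 of 11 of complex IV and 16 of 17 of ATP synthase. For complex I they were positive for 28 of 45. Without overlap, 3, 4, 8 and 11 genes of complexes II, III, IV and ATP synthase lay higher, and 1, 0, 1 and 0 lower. Of all tested genes 31.5% and 35.0% did so. Of 77 mitochondrial ribosomal protein genes 2 rose (Mrpl52 and Mrpl54, log2 changes 0.39 ± 0.08 and 0.44 ± 0.10), 0 fell and the median was 0.06. Neither Mrpl52 nor Mrpl54 passed without a filter on low values (adjusted p = 0.0533 and 0.0688), with eBayes without a trend (0.0616 and 0.0658) or with the replicate block (0.0881 and 0.0847), and Mrpl52 did not with quantile normalization (0.054), upper quartile scaling (0.0536) or the length trend removed (0.0763).

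Genes that supply complex I with clusters, NADH and quinone gave a mixed picture. Of 13 iron-sulfur cluster assembly genes and of 12 coenzyme Q synthesis genes 0 passed, with medians of -0.02 and 0.01. Iscu, the scaffold on which clusters are built, was at 83.0 and 84.6 FPKM with bleomycin and at 92.0 and 99.7 FPKM with PBS. Among 14 genes of NADH shuttles and of other enzymes that reduce quinone 2 rose, 1 fell and 11 did not pass. Got1, the cytosolic aspartate aminotransferase of the malate-aspartate shuttle, rose to 12.3 and 11.6 FPKM with bleomycin, against 7.14 and 7.69 FPKM with PBS (log2 change 0.62 ± 0.09, adjusted p = 0.0203 by limma). Slc25a13, the aspartate-glutamate carrier citrin of the same shuttle, rose to 3.31 and 3.67 FPKM with bleomycin, against 2.10 and 1.93 FPKM with PBS (0.57 ± 0.12, adjusted p = 0.0421 by limma). Prodh, proline dehydrogenase, which passes electrons to quinone past complex I, fell to 5.83 and 4.58 FPKM with bleomycin, against 9.37 and 10.8 FPKM with PBS (-0.84 ± 0.14, adjusted p = 0.0261 by limma). Without a filter on low values Slc25a13 and Prodh did not pass (adjusted p = 0.0654 and 0.0565), nor did Slc25a13 with the replicate block (0.0765). Without a PBS library none of the 3 passed, as for every tested gene.

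Of the regulators of mitochondrial biogenesis none passed, and of the genes that mark mitochondrial content 1 did. Of 11 tested regulators of mitochondrial biogenesis 0 passed, with a median of -0.06. The largest change among them was that of Pprc1, a coactivator related to PGC-1, at 11.1 and 8.94 FPKM with bleomycin and at 6.94 and 6.72 FPKM with PBS. Its groups did not overlap and it did not pass (log2 change 0.48 ± 0.13, adjusted p = 0.0665 by limma), but it passed with quantile normalization (adjusted p = 0.0374), in TPM (0.0435), with upper quartile scaling (0.0434) and with the length trend removed (0.0409). Nrf1, the gene of the factor whose palindrome is printed above, was at 6.97 and 6.62 FPKM with bleomycin and at 7.35 and 8.17 FPKM with PBS. Yy1 was at 27.2 and 28.4 FPKM with bleomycin and at 22.6 and 23.7 FPKM with PBS, without passing (adjusted p = 0.0988 by limma). The coactivators Ppargc1a and Ppargc1b lay below 1 FPKM in all 4 libraries and were not tested. The 15 content genes had a median log2 change of 0.14, with 12 positive, beside 6136 of all 12986 tested genes. The groups were without overlap for 10 that lay higher and 0 that lay lower with bleomycin, beside 31.5% and 35.0% of all tested genes. An unadjusted limma p under 0.05 was reached by 5 of the 15, beside 35.3% of all tested genes. Of the 15 content genes 1 rose, the import pore gene Timm23, at 57.2 and 60.0 FPKM with bleomycin and 39.2 and 44.7 FPKM with PBS (0.48 ± 0.10, adjusted p = 0.0387 by limma). The Timm23 call was absent without a filter on low values (adjusted p = 0.0596), with eBayes without a trend (0.0545), with the replicate block (0.0552) and without PBS replicate 1 or 2 (0.314 and 0.219). Citrate synthase (Cs) was at 65.9 and 64.9 FPKM with bleomycin and at 52.9 and 51.3 FPKM with PBS and did not pass (0.32 ± 0.08, adjusted p = 0.0524 by limma).

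**Figure D3:**
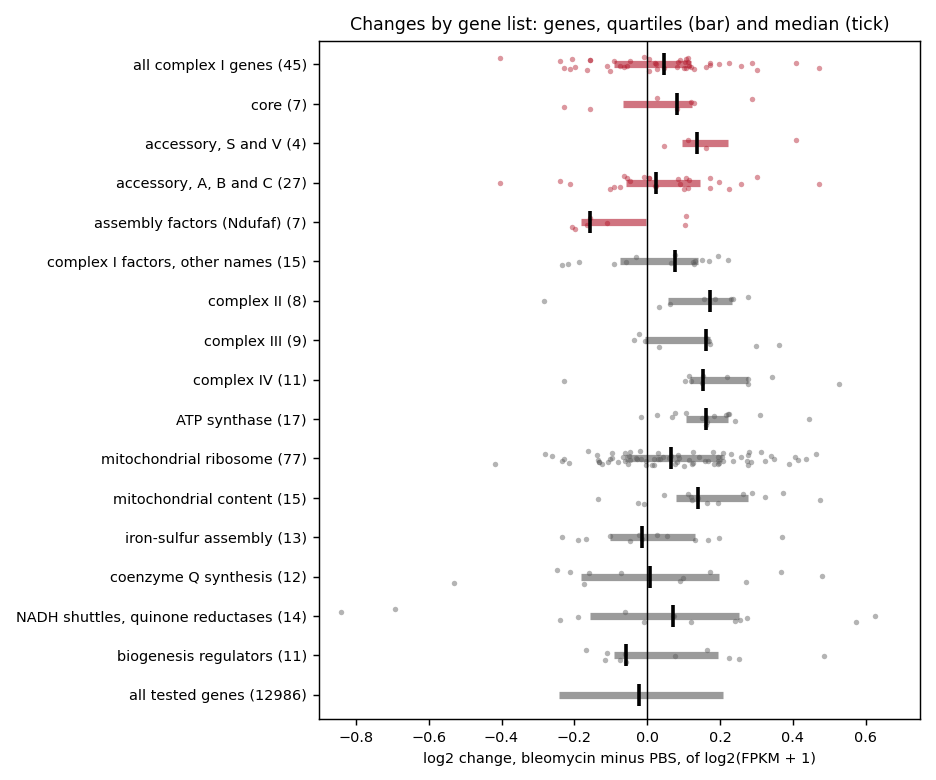
Log2 changes, bleomycin minus PBS, of the genes of each list (points), with the list's quartiles as the ends of a bar and its median as a black tick, and the number of tested genes in brackets. The complex I lists, in red, have medians from -0.16 (assembly factors) to 0.14 (accessory S and V names), between the quartiles of all tested genes, which are -0.24 and 0.21.

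The wider spread within a group lay in the PBS pair for complex I, unlike for the table as a whole. The median SD of the members on the log2 scale was 0.07 in the bleomycin pair and 0.11 in the PBS pair, whereas over all tested genes it was 0.12 in the bleomycin pair and 0.06 in the PBS pair. PBS replicate 2 lay above PBS replicate 1 for 38 of the 45 members, by a median of 0.16 on the log2 scale, which is larger than the median change with bleomycin. The members have short transcripts, 22 of them at most 800 bases, and the PBS difference went with transcript length in the whole table. Its median was 0.23 for tested genes up to 500 bases, 0.11 from there to 800 bases, and -0.06 over 4000 bases. In the bleomycin pair the same length classes had medians of -0.09, -0.09 and -0.05. The PBS difference had a median of 0.16 for core genes, 0.16 for accessory A, B and C names and 0.12 for assembly factors. Their median lengths were 1312, 680 and 1451 bases. Tested genes from 1200 to 2000 bases had a median PBS difference of 0.03. The part of transcript length in the PBS difference of the members was not tested. With the length trend removed in each library, an alternative chosen after seeing the data, the median change of the members was 0.09, and Ndufa11 (adjusted p = 0.024) and Ndufa4l2 (adjusted p = 0.0431) passed limma.

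**Figure D4:**
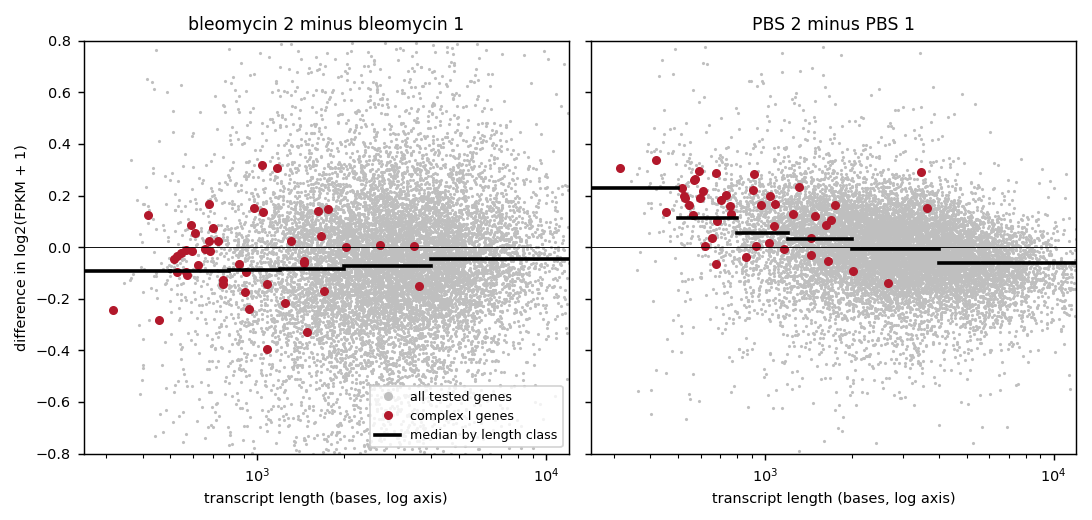
Difference in log2(FPKM + 1) between the replicates of a group against transcript length in bases (log axis), for bleomycin on the left and PBS on the right. Grey points are tested genes (664 and 26 lie beyond the axis on the left and right), red points the complex I genes and black lines the median in each length class, which falls with length in the PBS pair and stays between -0.09 and -0.05 in the bleomycin pair.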

How the data were processed

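RNA sequencing of whole lung gave 1 table of FPKM values, deposited by the authors, with 2 bleomycin and 2 PBS libraries, grouped by their titles. Bowtie2, HISAT, mm10 and GRCm38 are named per the submitters' processing notes; their versions and roles, the strand and the read counts were not given in the sources used here. A row without a gene name was left out, and 27 gene names that had become dates were restored.

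Genes averaging 1 FPKM or more over the libraries were tested as log2(FPKM + 1), a scale that understates the change of low genes, with limma 3.58.1 (R 4.3.3; eBayes with a trend; 2 residual and 2.76 prior degrees of freedom). The call was a Benjamini-Hochberg adjusted p under 0.05 over all 12986 genes, two-sided. The fit was tested on simulated data. Depth was estimated from the steps of low values, of which 75.5% to 80.2% lay within 0.15 of whole fragments, so fragment numbers are approximate. Promoters and gene positions are from RefSeq (GRCm38.p6).

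Genes past the threshold were named, and in each class those with the largest rise, the largest fall and the highest mean; other genes named were chosen after their values were seen. The members and lists were chosen with earlier results of these data known. The alternatives were other pseudocounts, filters, scalings and eBayes settings, a replicate block, leaving out each library, and removal of a length trend, the last chosen after seeing the data. Values of 1 member are not reported here; it stays in the counts, sums and medians.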

Additional observations from a re-analysis of the deposited data

How the results depend on the processing

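The count of complex I genes called higher (1, an accessory gene with an A name) was 0 without a filter on low values and 2 after rescaling to TPM; leaving out 1 library gave 0 to 4 (accessory A, B and C names 0 to 3, S and V names 0 to 1). The count called lower (0) was 1 with quantile normalization and 1 with the length trend removed, in both cases Ndufa4l2, and 0 to 3 with 1 library left out (core, accessory A, B and C names, and assembly 0 to 1 each). The replicate numbers do not pair the samples by any label, and the deviations of same-numbered libraries correlated at 0.02; with the replicate block 0 complex I genes were called and 1641 of all genes. The median log2 change of all complex I genes (0.05) was 0.11 in TPM, 0.091 with the length trend removed and -0.039 to 0.089 with 1 library left out. For core genes (0.08) it was 0.15 in TPM and -0.014 to 0.16, and for S and V names (0.14) 0.21 in TPM and 0.060 to 0.22. For assembly factors (-0.16) it was -0.12 with quantile normalization, -0.11 in TPM, -0.12 with the length trend removed and -0.19 to -0.044. With 1 library left out, limma called 0 to 2393 of all tested genes higher and 0 to 3180 lower. Without PBS replicate 1 or PBS replicate 2 limma called 0 genes, with 2130 and 2208 at an unadjusted p under 0.05; the library left alone in its group is assumed to vary like the other group. Of the 45 genes 19 changed sign in at least 1 of the 15 alternatives, in 0 cases in a fit that called the gene. The causes were not tested. With 2 libraries a group, and fewer than 100 estimated fragments for 3 genes, small changes were not detectable.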
